A study of Mus musculus with 6 samples.

Results

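The 10 claudin genes described here are Cldn1, Cldn2, Cldn3, Cldn4, Cldn5, Cldn7, Cldn8, Cldn10, Cldn16, and Cldn19, which were taken by their gene symbols and not by any measured value. They are 10 of the 33 genes with a claudin symbol and of the 28208 genes shared by the 6 count matrices. Their RNA was counted cell by cell in 6 mouse kidneys, of which 2 were naive, 2 rejecting, and 2 tolerized, with 1 library per kidney. Naive kidneys were untransplanted kidneys of male C57BL/6 (B6) mice aged 10 to 12 weeks. Rejecting and tolerized kidneys were BALB/c grafts, labeled male and 6 to 7 weeks old, that were placed in B6 recipients whose own kidneys had been removed, and both were taken on day 15. Recipients of rejecting kidneys were untreated, and recipients of tolerized kidneys had been infused with BALB/c splenocytes treated with the cross-linker ECDI, on day -7 and day 1. Strain, age, surgery, and gene list all differ between naive and transplanted kidneys, and their libraries share almost no cell barcodes. None of these differences can be told apart from the others in a comparison with naive kidneys. A software version is given for the transplanted kidneys alone, so whether it also differs is not known.

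Claudins are membrane proteins with 4 spans that link neighboring epithelial cells at the tight junction and set which ions and how much water pass between the cells. Each stretch of the renal tubule carries its own set. Claudin 2 forms a pore for cations and water in the proximal tubule, claudin 10 forms ion pores in the proximal tubule and the thick ascending limb, and claudins 16 and 19 act together in the thick ascending limb in the reabsorption of magnesium and calcium. Claudins 3, 4, 7, and 8 belong to the distal nephron and collecting duct, where claudins 4 and 8 are associated with passage of chloride, whereas claudin 5 seals the junctions of endothelium.

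In the GRCm38 annotation, Cldn3 (chr5:134986214-134987472, plus strand) and Cldn4 (chr5:134945119-134946934, minus strand) lie 39279 bases apart, and Cldn1 (chr16:26356642-26371841, minus strand) and Cldn16 (chr16:26463135-26482765, plus strand) lie 91293 bases apart. Of the other members, Cldn2 is at chrX:139800828-139811386, Cldn5 at chr16:18776847-18778262, Cldn7 at chr11:69964779-69967885, and Cldn19 at chr4:119255414-119262438, all on the plus strand, and Cldn8 is at chr16:88560828-88563183 on the minus strand. Cldn10 spans chr14:118787908-118875489 on the plus strand, and its promoters are shown because the 2 segments in which it was high, proximal tubule and thick ascending limb, cannot be assigned to its 2 starts from a count per gene. The RefSeq promoter windows of Cldn10 (GRCm38.p6, 250 bases before to 50 after the start) were chr14:118787621-118787920 for the upstream start and chr14:118854700-118854999 for the downstream start, 67079 bases apart, and capitals mark the dinucleotide CG.

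Cldn10 upstream start: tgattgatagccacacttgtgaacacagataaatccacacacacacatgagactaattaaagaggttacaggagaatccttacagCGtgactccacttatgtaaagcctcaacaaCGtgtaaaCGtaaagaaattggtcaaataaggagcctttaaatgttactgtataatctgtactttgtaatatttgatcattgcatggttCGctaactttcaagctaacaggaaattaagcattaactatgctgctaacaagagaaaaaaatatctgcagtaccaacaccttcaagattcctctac
Cldn10 downstream start: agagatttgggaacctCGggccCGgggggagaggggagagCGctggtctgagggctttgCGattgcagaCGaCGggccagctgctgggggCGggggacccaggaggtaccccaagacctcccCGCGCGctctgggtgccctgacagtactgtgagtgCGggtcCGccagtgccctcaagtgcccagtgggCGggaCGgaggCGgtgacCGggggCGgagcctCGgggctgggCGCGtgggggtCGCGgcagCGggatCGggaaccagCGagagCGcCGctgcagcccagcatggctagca

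The upstream window held 4 CG at a GC content of 36% and the downstream window held 27 CG at 72%, against a median of 7 CG over 32851 promoters. The window of Cldn4, the claudin whose rise from naive to rejecting kidneys in the distal convoluted tubule passed the test under every alternative tried, is at chr5:134946885-134947184 on the minus strand. Capitals mark its 2 matches to TGANTCA, the AP-1 letters, which were searched on both strands.

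Cldn4 promoter: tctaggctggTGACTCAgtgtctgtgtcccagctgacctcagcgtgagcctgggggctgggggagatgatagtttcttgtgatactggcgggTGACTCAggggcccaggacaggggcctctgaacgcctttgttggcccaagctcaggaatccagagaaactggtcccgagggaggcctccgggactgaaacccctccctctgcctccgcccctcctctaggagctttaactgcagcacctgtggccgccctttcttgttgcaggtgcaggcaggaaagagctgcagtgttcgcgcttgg

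This motif was present in 7.81% of the 32851 promoters and, among the 9 claudins with a promoter in the table, in Cldn4 alone. The longer Grhl letters AACCGGTT were in 0.146% of promoters and in none of these claudins, and the looser form AACNNGTT was in 4.2% of promoters and, among these claudins, in Cldn5. A match is a description of these letters and not evidence of binding. No promoter is shown for Cldn8.

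The libraries held between 34874702 and 96803926 unique molecular identifiers (UMIs), and 45667 cells remained after filters, of which 25468 were tubular or endothelial. Mitochondrial genes gave a median of 25.5% and 24.9% of the UMIs of a cell in naive kidneys against 5.38% to 13.7% in transplanted kidneys over all cells, leukocytes included. Within the classes described next the gap was smaller, with 36.9% and 38.5% against 24.0% to 29.7% in TAL, 28.4% and 29.1% against 17.1% to 22.7% in IC, and 21.4% and 23.5% against 14.7% to 24.0% in PC. The naive libraries shared 111 cell barcodes with each other, transplanted libraries shared 18 to 35 per pair, and a naive and a transplanted library shared 0 to 4. Naive and transplanted libraries thus overlapped less than libraries within either set. Whether their library kits or barcode sets differed is not given in the sources used here and was not tested. Cells were grouped by marker genes without any claudin, and the 7 classes used are called proximal tubule-like, thin limb-like, thick ascending limb-like (TAL-like), distal convoluted tubule-like (DCT-like), principal cell-like (PC-like), intercalated cell-like (IC-like), and endothelium-like. The clusters of the TAL, DCT, and PC classes each showed all 8 of their markers, the IC-like cluster all 9, the thin limb-like clusters 7 of 8, and the endothelium-like clusters 10 or 11 of 11. DCT-like clusters also showed 5 or 6 of the 8 TAL markers, and PC-like clusters 5 or 6 of 7 markers of the connecting tubule. The IC-like cluster also showed 6 of 8 principal cell markers and 4 of 7 markers of the connecting tubule. Of its cells 16.7% were called doublets and left out. Naive and transplanted cells lay mostly in different clusters of the proximal tubule, thin limb, TAL, DCT, and PC classes, whereas IC-like cells formed 1 cluster that held all kidneys. UMIs were summed per kidney and class, which makes each kidney 1 replicate (n = 2 in each group). The study ran 2 experiments with 1 kidney of each group in each, and the labels do not say which kidney belongs to which experiment, so the p values measure the spread between 2 libraries per group, experiment included. Levels are given in the order naive 1, naive 2, rejecting 1, rejecting 2, tolerized 1, and tolerized 2, as CPM (the UMIs of a gene scaled to a common total for the class) after edgeR's TMM scaling, or as raw CPM where levels of 2 classes are set side by side.

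Leukocytes, which should lack these claudins, gave the level of stray RNA. Raw CPM of Cldn10 in leukocytes was 51.8 and 45 in naive kidneys and 5.3 to 21.4 in transplanted kidneys, and that of Cldn8 was 12.9 and 8.4 in naive kidneys and 0.93 to 4.6 in transplanted kidneys. Stray claudin RNA was thus higher in naive kidneys. A claudin and class formed 1 of 24 pairs above background when its raw CPM was at least 3 times that of leukocytes of the same kidney, with at least 3 UMIs, in every kidney that entered the fit. Of the 70 pairs, 41 had enough counts to be tested. The pairs above background were Cldn2 and Cldn10 in proximal tubule, Cldn4, Cldn7, Cldn8, and Cldn19 in thin limb, Cldn3, Cldn7, Cldn8, Cldn10, Cldn16, and Cldn19 in TAL, Cldn4, Cldn7, and Cldn8 in DCT, Cldn3, Cldn4, Cldn7, and Cldn8 in PC and in IC, and Cldn5 in endothelium.

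**Figure D1:**
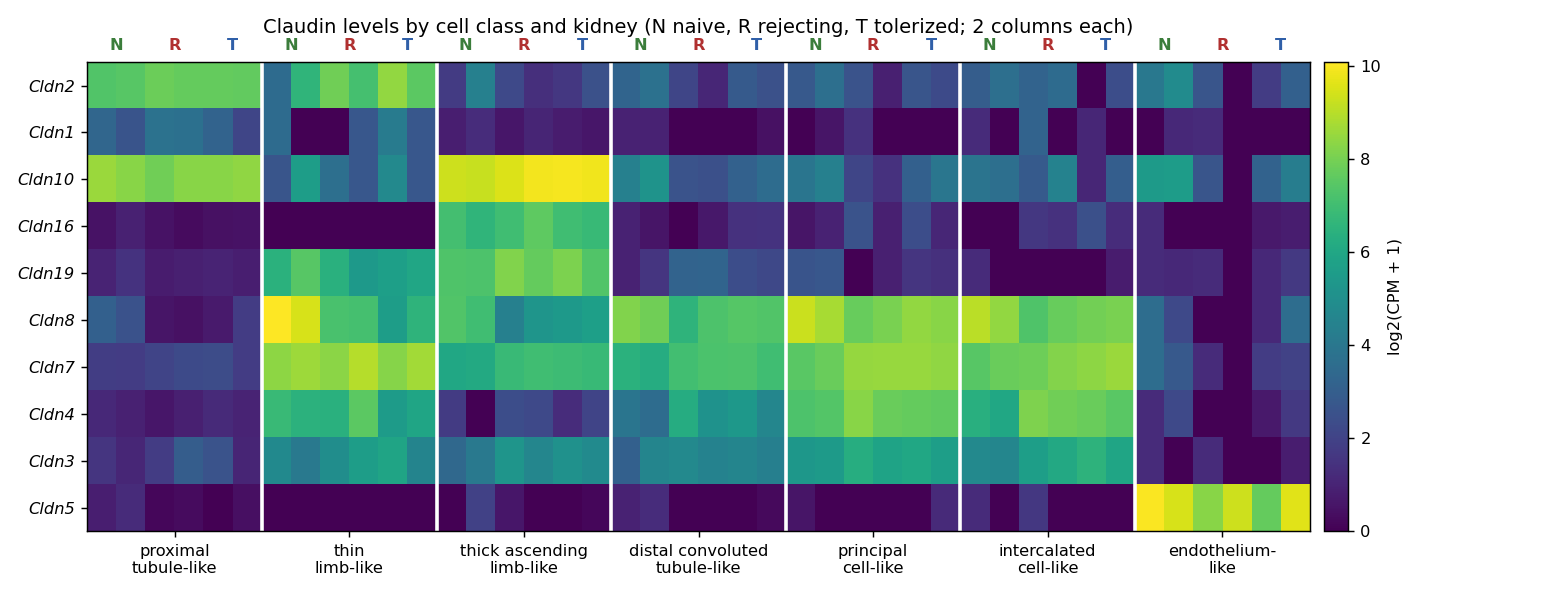
Levels of the 10 claudins (rows) as log2(CPM + 1) in 7 cell classes (blocks), with 1 column per kidney and 2 columns per group (N naive, R rejecting, T tolerized). Cldn10 is bright in proximal tubule-like and TAL-like cells, Cldn16 is bright in TAL-like cells alone, and Cldn5 is bright in endothelium-like cells.

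Proximal tubule-like cells carried Cldn2 and Cldn10. The raw CPM of Cldn2 was 137, 151, 264, 238, 226, and 189, with 126, 137, 276, 242, 241, and 198 in the early part (S1/S2) and 144, 161, 226, 227, 191, and 133 in the late part (S3). In each transplanted kidney the early part was higher, and in each naive kidney the late part was. The naive early part included a cluster of 712 and 692 cells, beside a late cluster of 1638 and 1064 naive cells. Inmt and Dnase1 were leading genes of both. In the coarser clustering (resolution 0.8) the largest naive late cluster held 2346 and 1743 cells, so the naive parts were divided otherwise there. The order of the parts was not tested at that resolution. The raw CPM of Cldn10 was 319, 273, 276, 364, 335, and 321. Cldn1 was low in this class, at a raw CPM of 7.56, 4.39, 14.9, 14.0, 8.94, and 3.12, and above 3 times the leukocyte level in 5 of 6 kidneys. Its mean over kidneys was 8.82, against 6.19 in thin limb, where it rested on 0 to 8 UMIs per kidney. Cldn2 was also found in thin limb-like cells at a raw CPM of 10.7, 87.7, 204, 136, 304, and 159, values that overlapped those of the proximal tubule.

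Thin limb-like cells were few, with 29 and 22 in naive kidneys, 21 and 18 in rejecting ones, and 20 and 21 in tolerized kidneys. They carried Cldn7 at a raw CPM of 333, 351, 282, 501, 269, and 349 and Cldn8 at 1090, 650, 125, 136, 42.3, and 79.4. Cldn4 was present at 113, 80.4, 73.1, 184, 40.4, and 50.6, and Cldn19 at 85.9, 161, 73.1, 42.5, 44.2, and 53. Cldn16 had no UMI in this class in any kidney, and neither had Cldn5.

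TAL-like cells carried the ion pore claudin Cldn10 at a raw CPM of 599, 561, 772, 1004, 1029, and 901, above the proximal tubule in each kidney. Cldn16 had 127, 89.2, 128, 201, 133, and 107, against at most 5.33 in PC-like cells, and Cldn19 had 151, 145, 292, 218, 282, and 155. In naive 2 the TAL-like value of Cldn19 (145) was below the thin limb-like value (161), and in the other kidneys it was above. Exons of Cldn19 overlap those of the antisense gene Gm12927, which had 67, 32, 14, 42, 123, and 164 UMIs in TAL-like cells against 196, 107, 537, 402, 1137, and 1252 for Cldn19. Use of strand in the counting is not given in the sources used here, so reads of the 2 genes are uncertain. Exons of Cldn3 overlap the antisense gene Wbscr25 in the same way, but Wbscr25 had at most 1 UMI per kidney in PC-like cells.

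Among the TAL, DCT, PC, and IC classes, claudins of the distal nephron were higher toward the collecting duct. Over all 7 classes the mean raw CPM of Cldn7 and of Cldn8 was highest in thin limb-like cells. It was 317 and 397 there (without rejecting 2, which had 18 cells), against 304 and 363 in PC-like cells. For Cldn8 the thin limb-like value was above the PC-like value in both naive kidneys and below it in each transplanted kidney. The raw CPM of Cldn7 was 60, 63.5, 117, 130, 126, and 106 in TAL-like cells, 78.9, 67.5, 136, 159, 168, and 121 in DCT-like cells, 182, 215, 380, 371, 376, and 301 in PC-like cells, and 161, 196, 236, 296, 328, and 382 in IC-like cells. Within every kidney PC-like and IC-like cells were above DCT-like cells, whereas the PC and IC values overlapped. The raw CPM of Cldn8 was 156, 119, 20.1, 39, 42.9, and 49.3 in TAL, 260, 216, 97.3, 164, 188, and 154 in DCT, 478, 320, 159, 212, 247, and 266 in IC, and 612, 429, 227, 267, 359, and 281 in PC, an order that held in each kidney. Cldn4 had a mean raw CPM of 209 in PC, 177 in IC, 71.4 in thin limb, and 34.1 in DCT, and Cldn3 one of 55.2 in PC, 52.2 in IC, 27.7 in thin limb, and 24.5 in TAL. For both genes the PC and IC values overlapped between kidneys.

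The claudins Cldn10 and Cldn16 were found together in a TAL-like cell less often than their shares would give. Cells were thinned to 1000 UMIs, which kept 235 of 235, 210 of 210, 279 of 292, 223 of 259, 343 of 367, and 496 of 526 cells. Cldn10 then had a UMI in 81, 81, 120, 106, 162, and 218 of these cells, and Cldn16 in 35, 19, 31, 37, 57, and 46. Both were found in 6, 4, 7, 12, 16, and 9 cells, where 12.1, 7.33, 13.3, 17.6, 26.9, and 20.2 would be expected from these counts. In another draw at the same depth, made for all classes, Cldn10 was found in 35.3% to 52.5% of TAL-like cells (62.3% to 71.4% before thinning) and Cldn16 in 7.46% to 18.4% (21.4% to 48.3% before thinning), against 0.601% to 5.71% and 0% to 0.637% of leukocytes. The ratio of found to expected was between 0.445 and 0.682 and below 1 in 6 of 6 kidneys. Cldn10 with Cldn19 gave ratios of 1, 0.589, 1.18, 1.22, 0.96, and 1.01, and Cldn16 with Cldn19 gave 1.55, 0.502, 0.94, 0.561, 1.4, and 0.462, on both sides of 1. Those of Cldn16 with Cldn19 rested on 6, 1, 7, 4, 20, and 3 cells with both. They were 1.31, 1.01, 1.32, 1.09, 1.17, and 0.973 with cells thinned to 2000 UMIs. With called doublets kept they were 1.06, 0.478, 0.96, 0.648, 1.02, and 1.1. These are descriptions of cells of 6 libraries, without a test.

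TAL-like cells with a UMI of Cldn16 and none of Cldn10 (58, 25, 48, 49, 57, and 80 cells) were set beside those with Cldn10 and none of Cldn16 (99, 121, 132, 99, 153, and 187 cells). Cells with both (48, 20, 50, 75, 109, and 174) or neither (30, 44, 62, 36, 48, and 85) were left out of the split. Before thinning, cells with both outnumbered Cldn16-only cells in each transplanted kidney. This split was chosen after its values were seen, so its log2 differences carry an SE but no test. Of 4981 genes compared, 5.46% were higher and 6.83% lower in Cldn16-only cells of all 6 kidneys. Pth1r, the receptor for parathyroid hormone, had a CPM of 290, 408, 73, 49.8, 51.7, and 119 in Cldn10-only cells and 828, 856, 452, 411, 324, and 712 in Cldn16-only cells, a log2 difference of 2.21 ± 0.18. Kcnj10, a basolateral potassium channel, had 58.3, 16.9, 56.5, 38.7, 67.7, and 62 against 211, 167, 124, 117, 216, and 231 (1.75 ± 0.15). Casr, the calcium-sensing receptor, had 56.2, 28.1, 53.7, 27.7, 41.2, and 59.5 against 65.9, 52.2, 93.4, 56.2, 91.6, and 114 (0.88 ± 0.15). All 3 were higher in Cldn16-only cells of each kidney.

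Fxyd2, the gamma subunit of the sodium pump, was lower in Cldn16-only cells of 6 of 6 kidneys (-1.08 ± 0.10). Of the 11 genes compared from a list on transport in this segment, 5 were higher and 2 lower in all 6 kidneys, with a list median of 0.34 against -0.01 for all genes. Among 16 tight junction partners and scaffolds, the scaffold Patj was higher (0.68 ± 0.17), and Cgnl1 (-0.90 ± 0.11), Magi3 (-1.57 ± 0.25), and Esam were lower in all 6. Esam, a junctional adhesion protein, had no UMI in the Cldn16-only cells of any kidney against 66.7, 28.1, 56.5, 35, 57.3, and 38.7 CPM (275 UMIs in all) in Cldn10-only cells, at least 45.4-fold lower when set against a floor of 3 UMIs over all kidneys. None of 8 adherens junction genes was on 1 side in all 6 kidneys. The kinase gene Wnk1 (2.47 ± 0.15) and the protease gene Tmprss2 (0.81 ± 0.16) were higher and the protease gene St14 (-0.47 ± 0.14) was lower, of 6 regulators compared. Among genes higher in Cldn16-only cells of all 6 kidneys, Foxq1 (4.80 ± 0.19) and Tmem52b (4.63 ± 0.16) had the largest excess. The first is also in the TAL marker list and the second in the DCT list. Ptgds, a prostaglandin D synthase, fell by 4.83 ± 0.21 on the log2 scale, a smaller fall than that of Esam.

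Cldn19 was higher in Cldn16-only cells of 6 of 6 kidneys by a smaller amount, with 158, 163, 295, 181, 281, and 167 CPM in Cldn10-only and 201, 188, 298, 242, 312, and 182 in Cldn16-only cells (0.19 ± 0.10). Cldn8 was 177, 110, 12.4, 16.6, 28.3, and 47.4 in Cldn10-only and 166, 167, 35.3, 58.7, 62.4, and 69.7 in Cldn16-only cells, so each naive kidney was above each transplanted kidney in both kinds of cell. Median UMIs per cell were 2470 to 7672 in Cldn10-only and 4188 to 13650 in Cldn16-only cells, and the part of depth in the split was not tested.

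**Figure D2:**
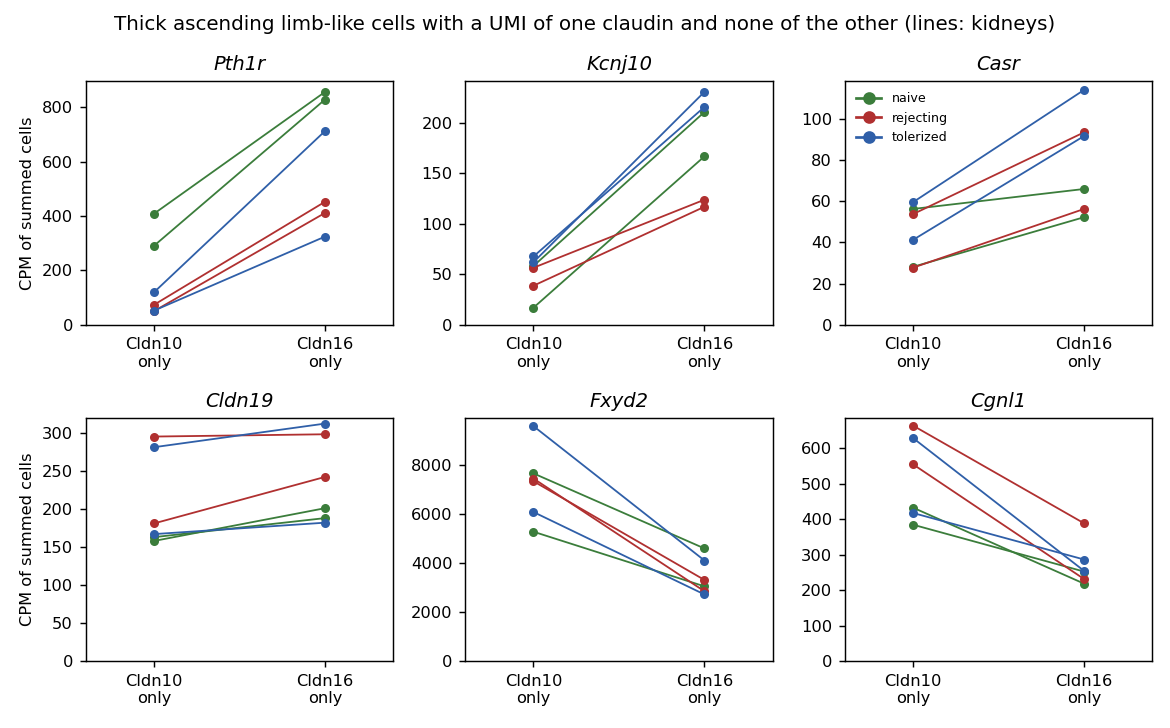
CPM of 6 genes in summed TAL-like cells with a UMI of Cldn10 only or Cldn16 only (x axis), with 1 line per kidney colored by group. Pth1r, Kcnj10, and Casr rise from Cldn10-only to Cldn16-only cells in each kidney, Fxyd2 and Cgnl1 fall in each, and Cldn19 rises by a smaller amount in each.

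To ask how far the claudins differ between the groups, each class was fitted across all genes with edgeR's quasi-likelihood method, and each p value was turned into a false discovery rate (FDR) that takes in all genes of the class. No claudin of the 41 pairs differed between tolerized and rejecting kidneys at an FDR of 0.05 in edgeR, and none did in DESeq2. The lowest FDR was 0.256. Of the 41 pairs 10 had an unadjusted p under 0.05, where 11.1%, 8.44%, 7.37%, 8.61%, 7.28%, 6.16%, and 6.41% of genes tested did in proximal tubule, thin limb, TAL, DCT, PC, IC, and endothelium, and of the 24 pairs above background 3 did. Few genes of any kind passed the FDR in this comparison (0%, 0.68%, 0.641%, 0.0976%, 0.114%, 0.013%, and 0% of genes tested, in the same order). Between rejecting and naive kidneys 19 of 41 pairs differed (9 higher and 10 lower), where 22.7%, 5.42%, 9.61%, 12.4%, 10.3%, 4.07%, and 8.29% of all genes tested were higher and 19.2%, 3.09%, 8.49%, 10.9%, 7.32%, 3.44%, and 8.03% lower, in the same order of classes. Between tolerized and naive kidneys 14 pairs differed (8 higher and 6 lower), where 17.1%, 6.38%, 6.31%, 8.96%, 9.13%, 3.37%, and 6.82% of genes were higher and 15.2%, 4.71%, 5.71%, 7.75%, 7.29%, 2.82%, and 6.34% lower. Of the 24 pairs above background, 12 differed between rejecting and naive kidneys (7 higher and 5 lower) and 9 between tolerized and naive kidneys (7 higher and 2 lower). Both comparisons share the naive kidneys. A pair that was low in 1 group could miss the background level because of that group, and 7 and 5 of the called pairs were not above background. Of these, Cldn2 in thin limb was higher in both comparisons (2.33 ± 0.59, FDR 0.00935, and 2.52 ± 0.48, FDR 0.000539), from 2 and 12 UMIs in naive kidneys, where its raw CPM in leukocytes was 20.7 and 23.9. DESeq2 did not call it (FDR 0.75 and 0.549), and without naive 1 the rejecting value was 1.26 (FDR 0.103) and without naive 2 it was 4.36. Cldn19 in DCT was higher in rejecting kidneys (2.57 ± 0.53, FDR 0.00549), from 3 and 4 UMIs in naive to 15 and 15 in rejecting kidneys, and that call was lost without naive 1 (2.06, FDR 0.0771). The others were lower, namely Cldn8 in proximal tubule and Cldn10 in DCT and endothelium in both comparisons, Cldn2 in DCT and Cldn10 in PC in rejecting kidneys, and Cldn5 in proximal tubule in tolerized kidneys.

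**Figure D3:**
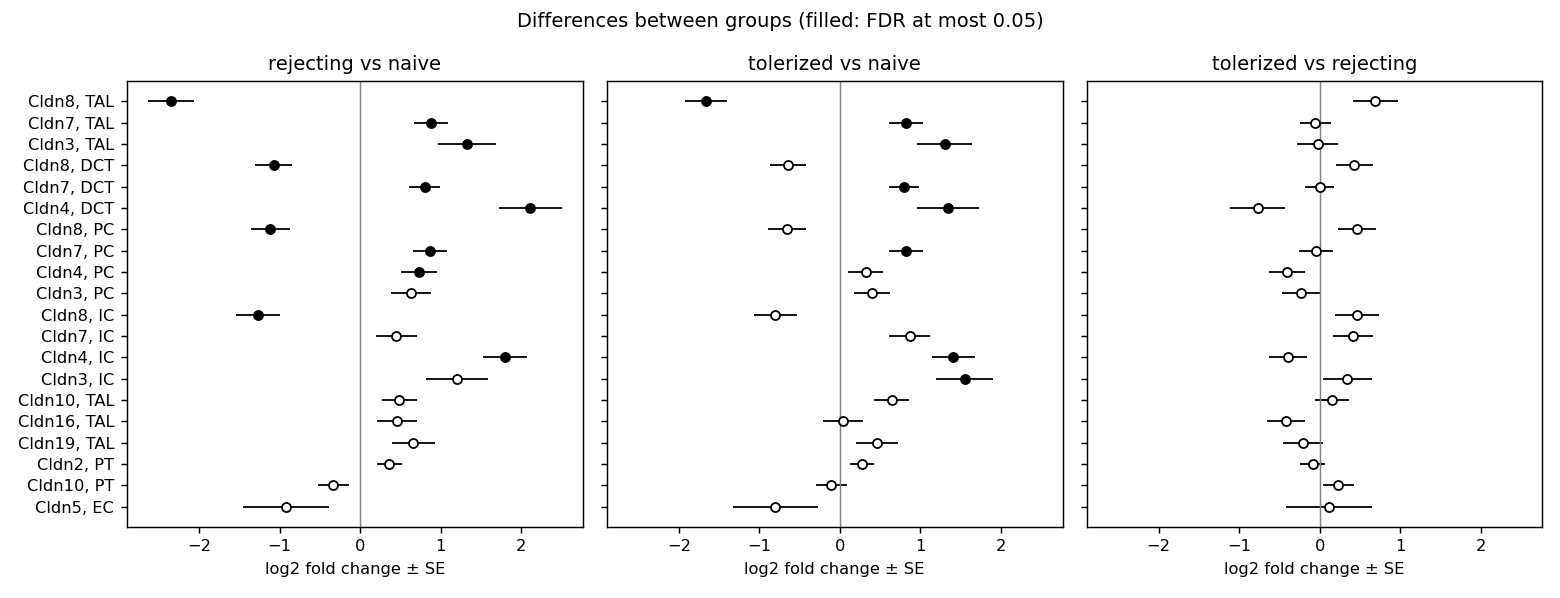
Log2 fold change ± SE (x axis) of 20 claudin and class pairs above background (rows; the 4 thin limb pairs are left out), in 1 panel per comparison. Filled points passed an FDR of 0.05: Cldn8 lies to the left of 0 and Cldn7, Cldn4, and Cldn3 lie to the right in both comparisons with naive kidneys, and the panel of tolerized against rejecting kidneys holds no filled point.

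Cldn8, a barrier claudin of the distal nephron, was lower in transplanted kidneys. TAL-like cells of naive kidneys held 163 and 127 CPM, those of rejecting kidneys 19.7 and 37.4, and those of tolerized kidneys 41.1 and 51. Against naive kidneys the log2 fold change was -2.36 ± 0.29 in rejecting (FDR 7.29e-05) and -1.66 ± 0.26 in tolerized kidneys (FDR 0.000732). In DCT-like cells the CPM was 284 and 235, 92.5 and 154.5, and 171.5 and 161, with fold changes of -1.08 ± 0.23 (FDR 0.00667) and -0.65 ± 0.22 (FDR 0.0697). PC-like cells had 613 and 432, 215 and 264, and 350 and 315, with -1.12 ± 0.24 (FDR 0.00592) and -0.65 ± 0.23 (FDR 0.0719). IC-like cells, which shared 1 cluster across kidneys, had 522 and 353, 157 and 211, and 245 and 263, with -1.26 ± 0.27 (FDR 0.0148) and -0.80 ± 0.26 (FDR 0.0957). In all 4 classes each naive kidney was above each transplanted kidney, where 21.6%, 23.3%, 22.1%, and 18.2% of genes did the same. Both tolerized kidneys were above both rejecting kidneys in all 4 classes, by 0.69 ± 0.28, 0.43 ± 0.23, 0.47 ± 0.24, and 0.46 ± 0.27. None of these passed the test, and 19%, 19.5%, 17.9%, and 18% of genes were placed likewise. With cells of at most 20% mitochondrial UMIs the IC value was 1.58, with rejecting 1 as the only rejecting kidney. Rejecting 2 had 37 IC-like cells at a median of 22.7% and fell under 20 cells there.

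Restricting cells to at most 20% mitochondrial UMIs left 35 of 235 and 22 of 210 naive TAL-like cells. In naive DCT-like cells it left 74 of 610 and 73 of 570. The fall of Cldn8 in rejecting kidneys held in TAL-like cells under every alternative, whereas that in tolerized kidneys was lost with cells of at most 20% mitochondrial UMIs (-1.34, FDR 0.111), as was the rejecting value in DCT-like cells (-0.80, FDR 0.0585). In DCT-like, PC-like, and IC-like cells it missed the FDR without naive 1 (-0.95, FDR 0.063; -0.87, FDR 0.102; and -0.92, FDR 0.188), and in IC-like cells also without rejecting 1 (-1.06, FDR 0.0524). In the tolerized comparison the DCT value passed without either rejecting kidney (-0.64 in both cases, FDR 0.0147 and 0.0155), and the IC value passed without rejecting 1 (-0.79, FDR 0.047). The fall was not shown to differ between the segments compared, which did not include thin limb. For rejecting against naive kidneys the log2 fold change in DCT minus that in TAL was 1.21 ± 0.40 (FDR 0.309), a difference that 0.173% of genes passed. In thin limb-like cells the CPM was 1082 and 714 in naive kidneys, 144 in the rejecting kidney fitted, and 47.9 and 93 in tolerized kidneys, changes of -2.65 ± 0.46 (FDR 0.0002) and -3.70 ± 0.35 (FDR 1.1e-08). Rejecting 2, with 18 such cells and 136 CPM, was not in that fit, and the naive and transplanted thin limb-like cells were separate clusters.

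**Figure D4:**
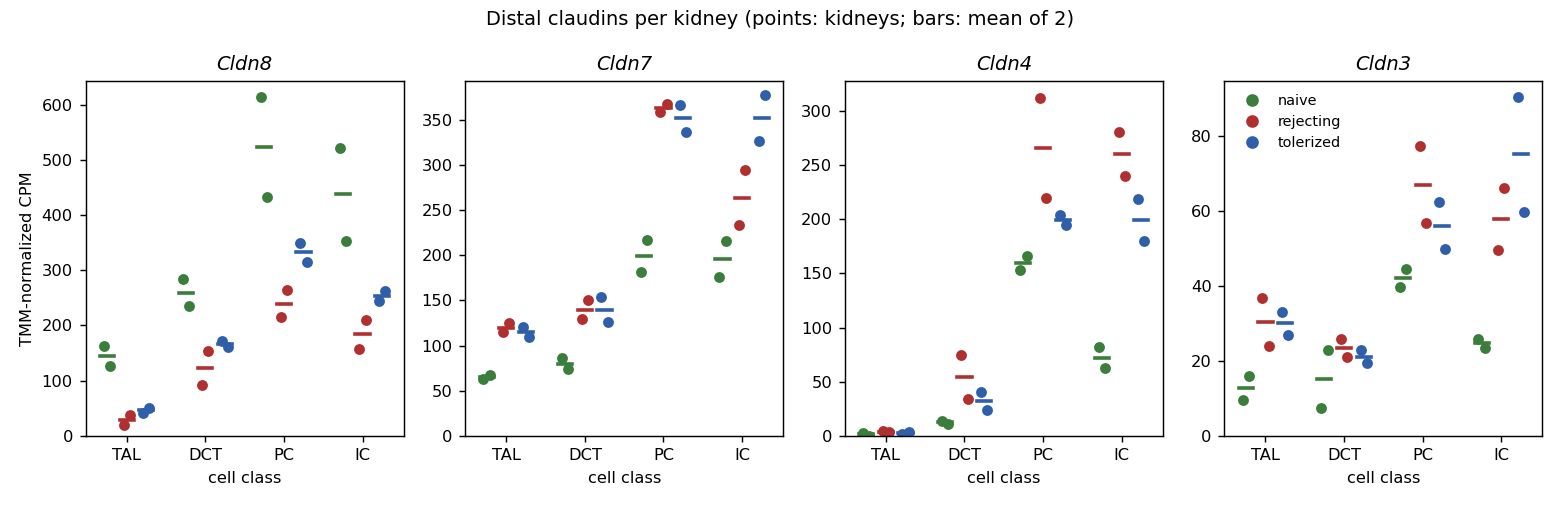
TMM-scaled CPM of Cldn8, Cldn7, Cldn4, and Cldn3 (panels) in TAL-like, DCT-like, PC-like, and IC-like cells, with 1 point per kidney and a bar at the mean of 2, colored by group. Cldn8 is highest in naive kidneys in each class, and Cldn4 in DCT-like and IC-like cells is lowest in them.

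Cldn7 was higher in transplanted kidneys in TAL-like, DCT-like, PC-like, and IC-like cells, but not in thin limb-like cells. There its log2 fold changes were -0.14 ± 0.37 for rejecting (1 kidney in the fit) and -0.002 ± 0.29 for tolerized kidneys. Its CPM was 62.7 and 67.9 in naive kidneys, 114.5 and 125 in rejecting ones, and 121 and 110 in tolerized TAL-like cells, with log2 fold changes of 0.88 ± 0.21 (FDR 0.0116) and 0.83 ± 0.21 (FDR 0.0202). In DCT-like cells it was 86.3 and 73.8, 129 and 150.5, and 154 and 126, with 0.80 ± 0.19 (FDR 0.0105) and 0.80 ± 0.18 (FDR 0.0125). In PC-like cells it was 182 and 217, 359 and 367, and 367 and 337, with 0.87 ± 0.22 (FDR 0.013) and 0.82 ± 0.21 (FDR 0.0163). IC-like cells had 176 and 215, 234 and 294, and 326 and 377, with 0.45 ± 0.26 (FDR 0.315) and 0.87 ± 0.25 (FDR 0.0623). Each transplanted kidney was above each naive kidney in all 4 classes, as 24%, 24.8%, 22.2%, and 19.5% of genes were. Each of these 6 calls was lost when at least 1 of the kidneys was left out. Without naive 1 the rejecting values were 0.82 (FDR 0.12) in TAL and 0.72 (FDR 0.164) in PC and the tolerized values 0.76 (FDR 0.177) in TAL, 0.90 (FDR 0.0611) in DCT, and 0.69 (FDR 0.196) in PC. Without naive 2 they were 0.93 (FDR 0.0551), 0.69 (FDR 0.103), and 0.97 (FDR 0.0863) in TAL, DCT, and PC for rejecting and 0.88 (FDR 0.0948), 0.68 (FDR 0.136), and 0.94 (FDR 0.11) for tolerized kidneys. Without tolerized 1 the tolerized values were 0.77 (FDR 0.13), 0.65 (FDR 0.104), and 0.76 (FDR 0.0738), and without tolerized 2 that of TAL was 0.89 (FDR 0.0638). With at most 20% mitochondrial UMIs the calls in TAL-like (0.82, FDR 0.363, and 1.22, FDR 0.18) and DCT-like cells (0.82, FDR 0.0927, and 0.52, FDR 0.273) were lost. Naive kidneys kept 35 and 22 TAL-like and 74 and 73 DCT-like cells there. The IC value of tolerized kidneys passed without rejecting 1 or rejecting 2 (0.89 in both cases, FDR 0.0249 and 0.0281).

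Cldn4 was higher in transplanted kidneys in 3 classes, DCT, IC, and PC. In thin limb-like cells rejecting 2, left out of the fit, was above both naive kidneys in raw CPM. On the log2 scale Cldn4 changed there by -0.27 ± 0.56 for rejecting (1 kidney fitted) and -0.96 ± 0.43 for tolerized kidneys. In DCT-like cells it rose from 14 and 10.7 CPM in naive kidneys to 74.9 and 34 in rejecting ones and to 40.6 and 23.9 in tolerized ones, by 2.12 ± 0.40 (FDR 0.00318) and 1.34 ± 0.39 (FDR 0.0359) on the log2 scale. In IC-like cells it was 81.8 and 62.7, 281 and 240.2, and 219 and 179.5, higher by 1.80 ± 0.27 (FDR 0.00145) and 1.41 ± 0.27 (FDR 0.00745). PC-like cells had 153 and 166, 312 and 220, and 204 and 194, with 0.73 ± 0.22 (FDR 0.0381) and 0.32 ± 0.22 (FDR 0.337). Each transplanted kidney was above each naive kidney in these 3 classes, as 24.8%, 19.5%, and 22.2% of genes were in DCT, IC, and PC. Both tolerized kidneys were below both rejecting kidneys in PC-like and IC-like cells, with log2 differences of -0.40 ± 0.22 and -0.39 ± 0.24, neither past the test and with 18% of genes placed likewise in each class. The rejecting calls in DCT-like and IC-like cells held under every alternative. In PC-like cells that call was lost without naive 1 (0.65, FDR 0.23), naive 2 (0.76, FDR 0.181), or rejecting 1 (0.46, FDR 0.211). The tolerized calls were lost in DCT-like cells without naive 1 (1.55, FDR 0.132), naive 2 (1.17, FDR 0.191), or tolerized 1 (0.93, FDR 0.183), and in IC-like cells without naive 1 (1.68, FDR 0.0769) or naive 2 (1.29, FDR 0.0951).

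Markers of other cells were summed in the same classes. The summed CPM of 8 injured tubule markers was 1110 and 1382 in naive and 2442 to 4380 in transplanted PC-like cells and 534 and 395 in naive and 1018 to 1893 in transplanted IC-like cells. In DCT-like cells it was 1225 and 1314 in naive and 1193 to 1451 in transplanted kidneys, and in TAL-like cells 144.5 and 173 against 171 to 590. Principal cell markers in IC-like cells summed to 3169 and 3250, 338 and 1534, and 1767 and 3869. T cell markers in TAL-like cells summed to 4.6 and 2.7 in naive kidneys, 151.5 and 40.6 in rejecting ones, and 24.5 and 13.1 in tolerized kidneys. Injured tubule markers were higher in each transplanted kidney than in each naive kidney in PC-like and IC-like cells, and so were T cell markers in TAL-like cells, whereas injured tubule markers in DCT-like and TAL-like cells and principal cell markers in IC-like cells overlapped. The part of these markers in the claudin differences was not tested.

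Cldn3 had fewer UMIs. In TAL-like cells its CPM was 9.65 and 15.9 in naive kidneys, 36.8 and 23.9 in rejecting ones, and 33 and 27 in tolerized kidneys, higher by 1.33 ± 0.36 (FDR 0.0209) and 1.30 ± 0.34 (FDR 0.0249) on the log2 scale. In IC-like cells it was 25.9 and 23.5, 49.6 and 66.1, and 90.4 and 59.6, with 1.21 ± 0.38 (FDR 0.0746) and 1.55 ± 0.35 (FDR 0.0214). PC-like cells had 39.8 and 44.6, 77.2 and 56.7, and 62.4 and 49.7, with 0.63 ± 0.25 (FDR 0.0914) and 0.40 ± 0.22 (FDR 0.238). Each transplanted kidney was above each naive kidney in these 3 classes, as 24%, 19.5%, and 22.2% of genes were in TAL, IC, and PC. The naive IC-like values rest on 19 and 6 UMIs. DESeq2 did not call any of the 3 differences that edgeR called (FDR 0.0579, 0.083, and 0.0958). The TAL calls were also lost with at most 20% mitochondrial UMIs (0.99, FDR 0.531, and 1.11, FDR 0.536), without naive 1 (0.93, FDR 0.242, and 0.90, FDR 0.293), and, for rejecting kidneys, without rejecting 1 (1.00, FDR 0.112), and, for tolerized kidneys, without tolerized 1 (1.17, FDR 0.116). The IC call was lost without naive 1 (1.67, FDR 0.181), naive 2 (1.52, FDR 0.119), or tolerized 1 (1.27, FDR 0.097).

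The TAL claudins Cldn10, Cldn16, and Cldn19 did not pass the test in TAL-like cells. The CPM of Cldn10 was 627, 600, 757, 963, 987, and 931 (0.49 ± 0.22, FDR 0.133, and 0.64 ± 0.21, FDR 0.0666). The tolerized value passed without rejecting 1 (0.65, FDR 0.0428), without rejecting 2 (0.66, FDR 0.0427), and in DESeq2 (0.62, FDR 0.0457). Cldn19 had 158 and 155, 286 and 209, and 270.1 and 160 (0.66 ± 0.26, FDR 0.0976, and 0.46 ± 0.26, FDR 0.287). Each transplanted kidney was above each naive kidney for both genes, as 24% of genes were. Cldn16, with 133 and 95.4, 126 and 193, and 128 and 111, overlapped (0.46 ± 0.25, FDR 0.22, and 0.04 ± 0.25, FDR 0.94).

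The proximal tubule claudins were likewise not called. The CPM of Cldn2 was 163, 175, 227, 206, 209, and 199 (0.36 ± 0.16, FDR 0.0924, and 0.27 ± 0.15, FDR 0.203), with each transplanted kidney above each naive kidney, as 32.2% of genes were. With cells of at most 20% mitochondrial UMIs, the differences in Cldn2 were 0.90 (FDR 0.00237) and 0.71 (FDR 0.0103). Cldn10 had 380 and 316, 238 and 315, and 311 and 337 (-0.33 ± 0.19, FDR 0.196, and -0.10 ± 0.19, FDR 0.70). The change of Cldn10 in TAL-like cells minus that in proximal tubule-like cells was 0.99 ± 0.29 for rejecting (FDR 0.0168) and 0.89 ± 0.28 for tolerized kidneys (FDR 0.0464) against naive kidneys. The fit took in all classes but thin limb, and 15% and 9.44% of genes passed.

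Endothelium-like cells carried Cldn5, at 1052 and 703 CPM in naive kidneys, 308 and 629 in rejecting ones, and 209 and 799 in tolerized kidneys. Naive and tolerized kidneys overlapped, and the differences from naive kidneys were -0.92 ± 0.54 (FDR 0.267) and -0.80 ± 0.52 (FDR 0.342). Tolerized 2 was the highest transplanted kidney, and without it the tolerized value was -2.08 ± 0.46 (FDR 0.00496), whereas without tolerized 1 it was -0.12 ± 0.42 (FDR 0.905). Without rejecting 1 the rejecting value was -0.47 (FDR 0.678), and without rejecting 2 it was -1.50 (FDR 0.148). Naive kidneys held a cluster of 163 and 140 endothelium-like cells, led by genes that include Ehd3 and Plat, in which Cldn5 had a raw CPM of 58 and 115 (20 and 37 UMIs). In the cluster that all kidneys shared, Cldn5 had a raw CPM of 1866 and 999 in naive kidneys (105 and 92 cells), 306 and 627 in rejecting ones, and 211 and 772 in tolerized kidneys. In that cluster each naive kidney was above each transplanted kidney, as 23.2% of genes were, and the differences were -1.71 ± 0.57 (FDR 0.0708) and -1.58 ± 0.56 (FDR 0.0874). Fewer cells of a kind and less RNA per cell cannot be told apart within these sums.

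**Figure D5:**
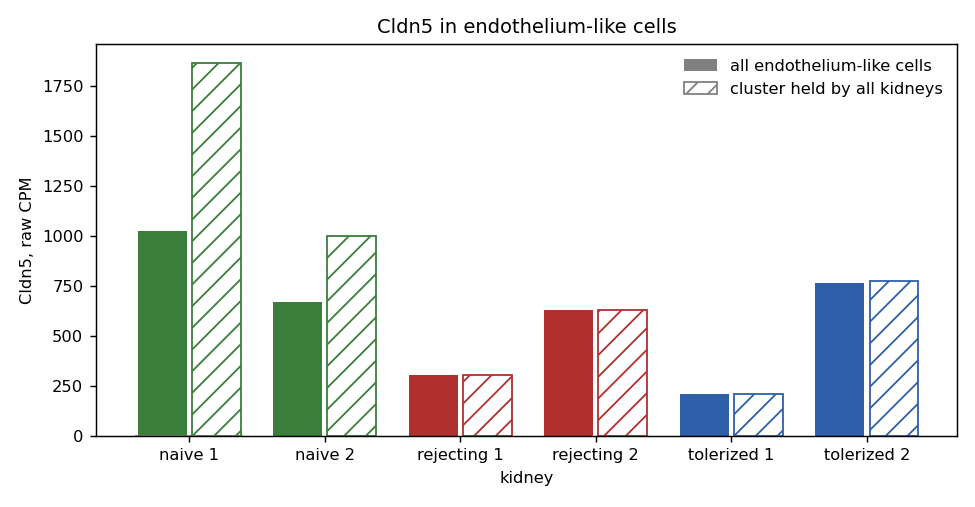
Raw CPM of Cldn5 (y axis) per kidney in all endothelium-like cells (filled bars) and in the cluster that all kidneys shared (hatched bars), colored by group. In the shared cluster the naive values are 1866 and 999 and the transplanted values run from 211 to 772.

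The genes whose levels were most like a claudin over the 42 sums of kidney and class, were found by Pearson's r of log2(CPM + 1) among 12711 genes. These sums share libraries and depth, so r is a description. Cldn7 was most like Epcam (0.981), an epithelial adhesion gene, Grhl2 (0.975), and Epn3 (0.970). Cldn4 was most like Krt18 (0.957), a keratin gene, Slc44a3 (0.907), and Nectin4 (0.901). Krt18 had a CPM of 276, 246, 1120, 867, 910, and 427 in PC-like cells, and it was higher in both comparisons with naive kidneys in DCT-like, PC-like, and IC-like cells, by 1.85, 1.93, and 1.67 for rejecting kidneys and by 1.02, 1.35, and 1.43 for tolerized ones (FDR at most 0.00911). Krt18 is itself 1 of the injured tubule markers. Cldn5 was most like Sema3g (0.992), Fbln2 (0.990), and Sox17 (0.988), an arterial transcription factor gene. Sox17 had 804 and 672, 251 and 268, and 187 and 429 CPM in endothelium-like cells, with log2 fold changes of -1.51 ± 0.36 (FDR 0.0178) and -1.26 ± 0.35 (FDR 0.037) in rejecting and tolerized kidneys. Cldn8 was most like Casz1 (0.926), AI661453 (0.926), and Trim2 (0.925), Cldn3 like Ccser1 (0.935), Slc44a3 (0.933), and Lgals3 (0.930), Cldn2 like Car14 (0.937), Folr1 (0.933), and Bdh2 (0.931), and Cldn10 like Rarres2 (0.897), Slc5a1 (0.887), and Flvcr2 (0.865). Cldn16 was most like Enox1 (0.947), Gm17225 (0.941), and Kcnt1 (0.938), Cldn19 like Irx2 (0.935), Sim2 (0.930), and Irx1 (0.909), and Cldn1 like Dtx4 (0.810), Clpx (0.787), and Hsf2bp (0.786).

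Partners of the claudins at the junction were described from lists. No gene of the lists differed between tolerized and rejecting kidneys in any class. Of 21 tight junction partners and scaffolds tested in TAL-like cells, 1 rose in rejecting kidneys and 1 rose and 1 fell in tolerized kidneys against naive kidneys, where 9.61% and 6.31% of all genes tested in this class rose and 8.49% and 5.71% fell. Marveld2, which encodes tricellulin, the protein of contacts between 3 cells, had a CPM of 7.24, 8.67, 38.3, 26, 32.1, and 28.2 in TAL-like cells, higher by 2.04 ± 0.36 (FDR 0.00159) and 1.94 ± 0.35 (FDR 0.00232). F11r, which encodes JAM-A, was lower in tolerized kidneys in TAL-like (-1.05, FDR 0.0411) and DCT-like cells (-0.63, FDR 0.0335). Of 21 tested in DCT-like cells, 3 rose in rejecting kidneys (12.4% of all genes did), among them the paracingulin gene Cgnl1, with 58.6 and 57.7, 117 and 106, and 100 and 97.4 CPM (0.94 ± 0.17, FDR 0.00258, and in tolerized kidneys 0.76 ± 0.16, FDR 0.0091). Of 21 tested in PC-like cells, 3 rose in rejecting kidneys (10.3% of all genes did) and 2 rose and 3 fell in tolerized kidneys (9.13% and 7.29%), with Marveld3 at 8.89 and 11.5, 28.5 and 22, and 21.7 and 25.4 CPM (1.26 ± 0.34, FDR 0.0194, and 1.22 ± 0.28, FDR 0.00904). The list median was between -0.30 and 0.31 in each class and comparison. Tjp1, the scaffold ZO-1, rose in endothelium-like cells from 113 and 91.9 to 273 and 242 and to 241 and 212 CPM (1.34 ± 0.25, FDR 0.00646, and 1.14 ± 0.24, FDR 0.014).

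Of 8 adherens junction and adhesion genes tested in TAL-like cells, 1 rose and 2 fell in each comparison with naive kidneys, beside the 9.61% and 6.31% of all genes that rose and the 8.49% and 5.71% that fell. Epcam, which binds claudin 7, had a CPM of 336, 251, 555, 636, 544, and 445 (1.01 ± 0.23, FDR 0.00715, and 0.74 ± 0.23, FDR 0.0447). Cdh1, which encodes E-cadherin, had 261 and 215, 108 and 96.6, and 108 and 135 (-1.23 ± 0.21, FDR 0.00135, and -0.97 ± 0.21, FDR 0.00721), and it was also lower in DCT-like cells in both comparisons (-0.83 in each, FDR 0.00799 and 0.00931). Ctnnd1, which encodes p120-catenin, was lower in both comparisons in TAL-like (-1.15 and -1.05), DCT-like (-1.15 and -1.16), and PC-like cells (-0.97 and -0.96).

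Of 12 genes on transport in the TAL, 1 rose and 3 fell in rejecting TAL-like cells and 2 fell in tolerized ones, beside the same shares of all genes. Pth1r had a CPM of 433, 516, 176, 191, 143, and 260 (-1.37 ± 0.26, FDR 0.00272, and -1.23 ± 0.26, FDR 0.00674). It was also lower in endothelium-like cells (-3.22, FDR 0.012, and -1.965, FDR 0.0343) and higher in rejecting PC-like cells (0.84, FDR 0.0473). The barttin gene Bsnd had 105 and 139, 54.9 and 45.2, and 72.7 and 94.6, lower in rejecting kidneys (-1.27 ± 0.24, FDR 0.00247). Of 10 regulators linked to distal claudins tested in DCT-like cells, 1 rose and 1 fell in rejecting kidneys (12.4% and 10.9% of all genes did). In tolerized kidneys 1 rose (8.96%). Klhl3, a ubiquitin ligase adaptor that acts on WNK kinases and claudin 8, was the one higher, with a CPM of 99.3, 40.3, 175, 183, 232, and 269 (1.34 ± 0.31, FDR 0.0105, and 1.82 ± 0.31, FDR 0.00237). Hsd11b2, which is also in the principal cell marker list, was the one lower in rejecting kidneys (-2.405, FDR 0.00803). It was lower in rejecting proximal tubule-like cells too (-2.57, FDR 0.00568) and higher in tolerized thin limb-like cells (4.32, FDR 0.0374). Genes of the lists were not set against leukocytes, so the part of stray RNA in their differences was not tested. In PC-like cells Klhl3 had 10.3 and 5.75, 26.8 and 36.4, and 41.1 and 55 (2.02 ± 0.36, FDR 0.00161, and 2.59 ± 0.30, FDR 4.4e-05). It was the only regulator called in that class, where 10.3% and 9.13% of all genes rose. The rise of Klhl3 was not particular to distal classes. It was also higher in proximal tubule-like cells in both comparisons (1.84, FDR 0.0036, and 1.985, FDR 0.0031) and in tolerized IC-like cells (1.74, FDR 0.0318). Of the 23 other claudins, at most 4 were tested in a class. Cldn12 had 29.9 and 20.6, 11.7 and 8.47, and 7.99 and 10 CPM in PC-like cells and was lower (-1.38 ± 0.39, FDR 0.0253, and -1.45 ± 0.30, FDR 0.00422), and Cldn6 was higher in tolerized PC-like cells (2.20 ± 0.70, FDR 0.045), where it had 0.468 and 1.92 CPM in naive and 4.2 to 8.39 CPM in transplanted kidneys.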

How the data were processed

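Single-cell RNA was measured with the 10x Chromium system in 6 kidneys. The authors deposited raw UMI counts per gene and barcode from Cell Ranger (mm10; version 3.0.1 in the headers of the transplanted kidneys), with 28692 features in naive and 31053 in transplanted kidneys, and the 28208 shared genes were used. Whether counting used strand is not given in the sources used here. Barcodes were dropped when they had under 500 UMIs, under 250 genes, or a mitochondrial share over 50%. The lowest UMI total among cells kept was 1538 and 1342 in naive kidneys and 500 to 502 in transplanted kidneys. Cells of low depth thus came from transplanted kidneys alone, and the alternative of at least 1000 UMIs removed no naive cell. Doublets were then called by Scrublet score at a fixed rate of 0.8% per 1000 barcodes. This called 450 to 1256 cells per kidney, against 2 to 296 by Scrublet's own threshold. Called doublets stayed in the clustering and were left out of the cell counts and sums. Cells were clustered with scanpy 1.11.5 (2500 variable genes, 40 components, 20 neighbors, Leiden resolution 1.5, no claudin used) into 56 clusters, of which 8 stayed unnamed. The largest unnamed cluster held 810 cells of low depth, 769 of them from rejecting 1, and entered no class. Its leading genes included Cgnl1 and the TAL marker Wfdc15b. At resolution 0.8 rejecting 1 had 400 TAL-like cells, against 292 here. A cluster that joined thin limb and stroma was divided after the data were seen.

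Counts were summed per kidney and class. A kidney with under 20 cells of a class was left out, as was rejecting 2 in thin limb. All 6 kidneys entered 1 quasi-likelihood fit per class with edgeR 4.0.16 in R 4.3.3 (low counts filtered with filterByExpr, TMM scaling), and p values were adjusted (Benjamini-Hochberg) over the genes tested in the class. Differences between classes, thin limb left out, were tested as the interaction of class and group with kidney as a block. The scripts were tested on simulated data. Replicates differed by more than sampling noise, with a chi-square per degree of freedom of 27.4 or more. Total depths are given with the results, and the floor for a count of 0 is 3 UMIs, for counting error only.

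The members and lists were chosen with earlier results of these data known. All 10 claudins were described in every class. From each list, up to 3 genes per direction, class, and comparison with the largest change past an FDR of 0.05 could be named (some members counted in the lists are not reported here), and for each claudin the 3 genes with the highest correlation among genes of at least 10 CPM in 1 or more sums. The split of TAL-like cells, the comparison with leukocytes, and the endothelial cluster of all kidneys were chosen after seeing the data. Alternatives were DESeq2 1.42.0 and its size factors, no filter on low counts, a replicate block, no mitochondrial genes, other cell filters, doublets kept, resolution 0.8, transplanted kidneys fitted alone, and leaving out each kidney.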

Additional observations from a re-analysis of the deposited data

Results flagged for a closer look

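The change of Cldn10 against naive kidneys differed between TAL-like and proximal tubule-like cells, by a test of the interaction of class and group. In rejecting kidneys the log2 fold change in TAL-like cells exceeded that in proximal tubule-like cells by 0.99 ± 0.29 (FDR 0.0168), and in tolerized kidneys by 0.89 ± 0.28 (FDR 0.0464). Thin limb was not in this fit. Of 450 such comparisons over all claudins and pairs of the other classes 41 passed an FDR of 0.05, and of the 57 in which the claudin was above background in both classes, these 2 passed. The comparisons share the naive kidneys, and the part of the 2 starts of the gene in the difference was not tested.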

How the results depend on the processing

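With 2 kidneys per group and naive kidneys that differ in strain, age, gene list, and cell barcodes, p values rest on few samples. Over the 24 pairs above background, no direction of a called value turned: 321 of 344 alternatives left the call of rejecting against naive kidneys as it was, 19 lost it, and 4 gained it, with 304 of 348, 26, and 18 for tolerized against naive kidneys and 370 of 372, 0, and 2 for tolerized against rejecting kidneys. Restricting cells to at most 20% mitochondrial UMIs gave 1, 11, and 5 called pairs for tolerized against rejecting, rejecting against naive, and tolerized against naive kidneys (0, 19, and 14 in the report). The 1 pair was Cldn8 in IC-like cells (1.58), in a fit that held rejecting 1 as the only rejecting kidney. Rejecting 2 had under 20 IC-like cells left. The same restriction kept the highest class of 6 of 10 claudins and gave 11 differences between segments in place of 41. Without the filter on low counts 4 pairs were called for tolerized against rejecting kidneys, among them Cldn4 in DCT-like cells (-0.74, FDR 0.039), and 30 for rejecting against naive kidneys. Pairs above background only gave 12, 9, and 2 for the last-named comparison, tolerized against naive kidneys, and differences between segments. Leaving out 1 kidney gave 0, 11 to 21, and 5 to 17 called pairs. DESeq2 called 0, 17, and 10. The median ratio of cells with both Cldn10 and Cldn16 to those expected was 0.536, and it was 0.64 when cells were thinned to 2000 UMIs and 0.626 with doublets kept. The 2 experiments of the study each held 1 kidney of each group, but the labels do not tie them to the replicate numbers. Over all genes, kidneys of the same number did not deviate together (r from -0.112 to 0.074), so the numbers were not taken to pair the kidneys, although single genes can differ by number: Sgk1 in PC-like cells had 65.5, 45.3, and 40 CPM in kidneys numbered 1 and 342, 232, and 317 in those numbered 2. A replicate block gave 0, 19, and 15 called pairs and changed 1 call, Cldn19 in thin limb (-1.15, FDR 0.0483, in tolerized kidneys). The interaction and the ratios were not run without single kidneys. The cause of these shifts was not tested.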

Other observations

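Outside the 7 classes, Cldn1 was highest in 2 small clusters that the markers named injured tubule-like, although they came mostly from naive kidneys. One held 33 cells (18 and 11 from naive kidneys), with 29 UMIs of Cldn1 and 102 CPM. It showed 3 of the 8 markers (Sox9, Krt18, and Krt8). The other held 22 cells (15 and 5 from naive kidneys), with 24 UMIs and 150 CPM. It showed 5 of the markers (the same and Vcam1 and Clu). Neither showed Havcr1, Krt20, or Lcn2, so the name is uncertain, and injury of these cells was not tested. A podocyte-like cluster of 9 cells held 62 UMIs of Cldn5, at 1712 CPM. These clusters were too small for a comparison of groups.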
